A study of Mus musculus with 6 samples.

Results

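DNA methylation was described over the hair and skin barrier gene clusters of the mouse: the protein-coding autosomal genes whose symbols begin with Krtap, Lce or Sprr, which came to 91 of 20665 protein-coding autosomal genes in RefSeq's GRCm38.p6 annotation (the coordinates of mm10). They were 56 Krtap genes, 21 Lce genes and 14 Sprr genes, and the rule for choosing them uses the symbol and no methylation value. The cells were endothelial cells sorted by flow cytometry from lungs of wild-type mice, profiled by T-WGBS, a form of genome-wide bisulfite sequencing in which a transposase fragments a small amount of DNA before bisulfite separates methylated from unmethylated cytosines. There were 3 samples titled Aged, taken as mice of 18 months, and 3 titled mAdu, taken as mice of 8 months, with no treatment named for either. The labels do not tie the ages to the titles, and neither single animals nor pools are named as the origin of a sample, so p-values here measure sample-to-sample spread that may be technical. The values are the authors' mean methylation levels of 1-kb windows, given here in percent, and a gene region is the plain mean over windows touching a gene or the 5 kb on either side of it.

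Krtap genes encode keratin-associated proteins, which cross-link the keratin filaments of the hair shaft and are made in the differentiating hair follicle. Lce genes encode late cornified envelope proteins and Sprr genes small proline-rich proteins, and transglutaminases cross-link both into the cornified envelope, the protein shell of dead keratinocytes at the skin surface. Lce and Sprr genes sit together in the epidermal differentiation complex, and Sprr genes also act in other lining epithelia. Neither set has a known structural role in endothelium. Methylation of CpG dinucleotides is usually low at CpG-rich promoters and is often high at CpG-poor promoters of tissue-restricted genes in cells that do not use them. Expression was not measured in the data used here.

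The 91 genes formed 7 clusters of neighbouring genes of a family. On chromosome 3, 14 Sprr genes lay at chr3:92215835-92500493 and 21 Lce genes at chr3:92604821-93019061. The Krtap genes lay at chr16:88610709-89571183 (24 genes), chr11:99550132-99993994 (23 genes), chr7:142174532-142304503 (5 genes), chr10:77720586-77837251 (3 genes) and chr1:83060930-83061921 (Krtap28-13 alone). Their regions held 552 distinct windows of the 1683697 that had a value in all 6 samples, and 63 of these windows were shared by at least 2 of the genes. A gene region rested on a median of 7 windows (1 to 12), and 4 genes had fewer than 3. Of the 1-kb bins of these regions, summed gene by gene with shared bins counted for each gene, 54.7% had a value, against 78.7% over all protein-coding genes. The share was 68.4% for Krtap, 35.5% for Lce and 35.1% for Sprr genes. The table gives no read coverage, so the depth behind each value is unknown and precision was judged from the samples alone.

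Promoters of 5 of the genes are printed here because they span the range of methylation found at the gene starts: the least and the most methylated Krtap promoters, the least and the most methylated Lce promoters, and the least methylated Sprr promoter. Each is the RefSeq promoter of the GRCm38.p6 build (mm10), 300 bases from 250 before to 50 after the gene start, written 5′ to 3′ on the gene's strand, with CG dinucleotides and the TATA box motif TATAAA in capitals. They lie at chr11:99993945-99994244 on the minus strand (Krtap17-1), chr16:88612230-88612529 on the minus strand (Krtap24-1), chr3:92926181-92926480 on the minus strand (Lce3a), chr3:92778850-92779149 on the minus strand (Lce1i) and chr3:92364937-92365236 on the plus strand (Sprr2f).
Krtap17-1: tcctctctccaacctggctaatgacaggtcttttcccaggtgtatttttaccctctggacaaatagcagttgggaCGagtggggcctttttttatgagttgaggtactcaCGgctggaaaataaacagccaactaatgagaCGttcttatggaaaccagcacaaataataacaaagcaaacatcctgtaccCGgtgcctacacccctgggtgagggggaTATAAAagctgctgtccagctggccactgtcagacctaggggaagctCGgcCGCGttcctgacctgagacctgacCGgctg
Krtap24-1: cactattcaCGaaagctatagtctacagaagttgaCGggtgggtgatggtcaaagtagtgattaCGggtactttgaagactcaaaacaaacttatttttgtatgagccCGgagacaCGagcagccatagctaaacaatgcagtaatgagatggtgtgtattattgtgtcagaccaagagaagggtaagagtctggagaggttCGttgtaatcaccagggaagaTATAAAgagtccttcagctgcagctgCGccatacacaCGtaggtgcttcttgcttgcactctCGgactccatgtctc
Lce3a: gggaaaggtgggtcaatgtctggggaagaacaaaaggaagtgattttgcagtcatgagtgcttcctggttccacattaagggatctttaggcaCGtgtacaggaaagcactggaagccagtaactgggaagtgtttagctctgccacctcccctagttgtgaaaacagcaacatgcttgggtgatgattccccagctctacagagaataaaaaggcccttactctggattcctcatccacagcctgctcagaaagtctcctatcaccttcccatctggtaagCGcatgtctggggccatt
Lce1i: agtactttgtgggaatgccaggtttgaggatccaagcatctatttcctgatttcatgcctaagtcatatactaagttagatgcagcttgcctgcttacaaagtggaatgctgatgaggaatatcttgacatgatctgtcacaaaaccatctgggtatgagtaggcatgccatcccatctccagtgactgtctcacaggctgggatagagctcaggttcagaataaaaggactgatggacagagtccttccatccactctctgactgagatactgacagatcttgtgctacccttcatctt
Sprr2f: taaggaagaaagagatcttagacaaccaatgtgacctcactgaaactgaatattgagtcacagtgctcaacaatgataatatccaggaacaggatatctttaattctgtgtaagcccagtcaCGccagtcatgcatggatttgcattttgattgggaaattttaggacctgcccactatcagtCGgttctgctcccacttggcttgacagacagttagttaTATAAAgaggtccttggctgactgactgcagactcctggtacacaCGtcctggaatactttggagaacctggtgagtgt

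Krtap starts were about as methylated as their surroundings, and Lce starts, on 7 windows, had a lower median than theirs. For Sprr starts, on 8 windows, the comparison depended on the distance. In the window centred on the gene start, the barrier genes had a median level of 75.6% (56 windows) over all samples, and all protein-coding genes had a median of 4.90% (15103 windows). The Krtap starts lay at a median of 79.3% (41 windows), the Sprr starts at 72.6% (8 windows) and the Lce starts at 56.0% (7 windows). At 2 kb before the start the medians were 78.5% for Krtap (30 windows), 65.1% for Sprr (3 windows) and 76.0% for Lce (3 windows), and at 2 kb after it 79.3% (34 windows), 75.5% (2 windows) and 72.5% (12 windows). By the medians the Lce profile thus dipped at the start, by less than the profile of all genes. The Sprr start lay between its medians at 2 kb before and after. It lay below those at 1 kb before (78.7%, 3 windows) and 1 kb after (79.6%, 6 windows). The medians of all genes were 76.0% at 2 kb before and 74.6% at 2 kb after the start. By the means the low Lce level was not particular to the start: it was 60.6% at the start (7 windows) and 58.5% at 5 kb after it (12 windows). The pooled profile showed no dip at the start, and 41 of its 56 start windows belonged to Krtap genes.

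**Figure D1:**
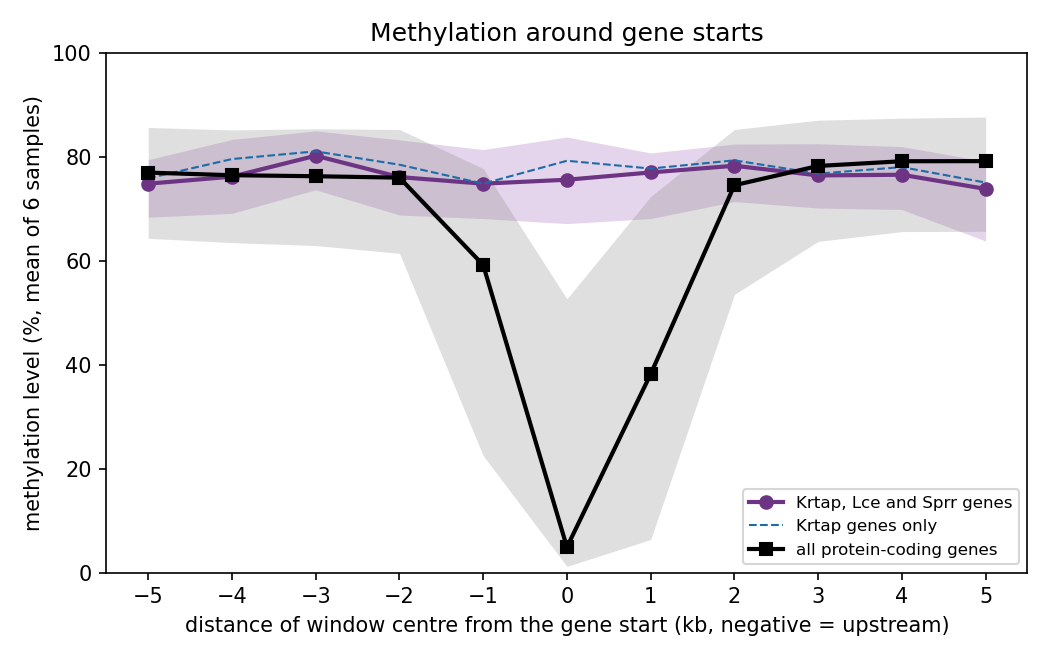
Median methylation level (%, mean of 6 samples) of 1-kb windows by the distance of the window centre from the gene start (kb), for the Krtap, Lce and Sprr genes (circles), the Krtap genes alone (dashed line) and all protein-coding genes (squares); shaded bands are interquartile ranges. All genes drop to 4.90% at the start, while the barrier genes, pooled over the families, have 75.6%.

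At promoters, 85 of the 91 genes had a listed promoter and 59 of these overlapped a window with a value. Their promoter windows had a median level of 74.5% (29.9% to 93.2%), against 8.67% over 15247 protein-coding genes. None of the 59 was under 20%, whereas 61.7% of all genes were. Only 2 lay under 50%, those of Krtap17-1 and of Krtap5-4 (41.1%), and 18 lay above 80%. Of those 18, 17 were promoters of Krtap genes and the other was that of Lce1i. Median promoter levels were 78.2% for Krtap (42 genes), 70.3% for Sprr (8 genes) and 62.4% for Lce (9 genes).

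The promoter of Krtap17-1, a keratin-associated protein gene at the edge of the chromosome 11 cluster, was the least methylated. Its windows had 30.8%, 24.5% and 32.1% in aged samples, against 28.2%, 33.6% and 30.2% in mAdu samples. The groups overlapped, and the gene region with its flanks was at 68.4%, so the low level was local to the start. The promoter of Krtap24-1, the outermost gene of the chromosome 16 cluster, stood at the other end with 92.0%, 93.2% and 93.7% in aged samples, against 92.0%, 93.8% and 94.7% in mAdu samples. The printed sequences carry 8 CG in Krtap17-1 and 9 in Krtap24-1, each with TATAAA, beginning 31 and 27 bases before the start. Their windows nonetheless lay more than 60 points apart in every sample.

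Among the cornified envelope genes, the lowest promoter windows were those of Lce3a and Sprr2f. Lce3a, with 2 CG in the printed promoter, had 49.0%, 48.1% and 49.1% in aged samples, against 51.4%, 53.4% and 56.9% in mAdu samples. Each aged value was below each mAdu value. Sprr2f, with 3 CG, had 57.7%, 51.7% and 48.7% in aged samples, against 47.1%, 52.4% and 52.0% in mAdu samples, and the groups overlapped. Lce1i, with no CG in its promoter, had 84.2%, 81.0% and 84.3% in aged samples, against 77.0%, 91.6% and 75.2% in mAdu samples. The value of its 1-kb window therefore does not come from the printed bases.

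These promoters were poor in CpG and, for Krtap and Sprr, rich in TATAAA. The barrier promoters held a median of 1 CpG, and 18 of 85 held none, against a median of 14 CpG over 16457 protein-coding genes. The motif TATAAA, searched on the gene's strand only, occurred in 54 of 85 barrier promoters (63.5%) and in 9.08% of all promoters of the same length. It began between 35 and 25 bases before the start in 39 barrier promoters (45.9%), against 2.64% of all. It was found in 42 of 51 Krtap promoters (82.4%) and 10 of 14 Sprr promoters (71.4%), but in only 2 of 20 Lce promoters. The printed sequences show this: the Krtap and Sprr promoters hold TATAAA just before the start, and both Lce promoters lack these letters. A match is a description of the sequence and was not tested as a site.

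Other CpG-poor promoters were methylated to a like degree. Barrier promoters with at most 3 CpG had a median of 73.7% (45 genes), against 69.6% for the other genes with at most 3 CpG (2713 genes). At higher CpG counts some Krtap genes lay above the general pattern, and other barrier genes lay within it. All genes with 4 CpG had a median of 66.1%, with 6 CpG 51.9% and with 9 CpG 18.2%. Barrier genes with 4 CpG spanned 55.5% (Krtap10-4) to 87.0% (Krtap19-5), Krtap14 with 6 CpG had 80.2%, and Krtap24-1 with 9 CpG had 93.2%, above the upper quartile of 51.9% for its CpG count. Krtap17-1 with 8 CpG had 29.9%, near the median of 31.9% for genes with that count. Krtap8-1, Krtap11-1, Krtap29-1, Krtap10-4 and Lce1c, with 4 CpG each, lay within the interquartile range for that count (45.4% to 78.0%). The only Sprr promoter with more than 3 CpG, that of Sprr2d, had no window with a value.

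**Figure D2:**
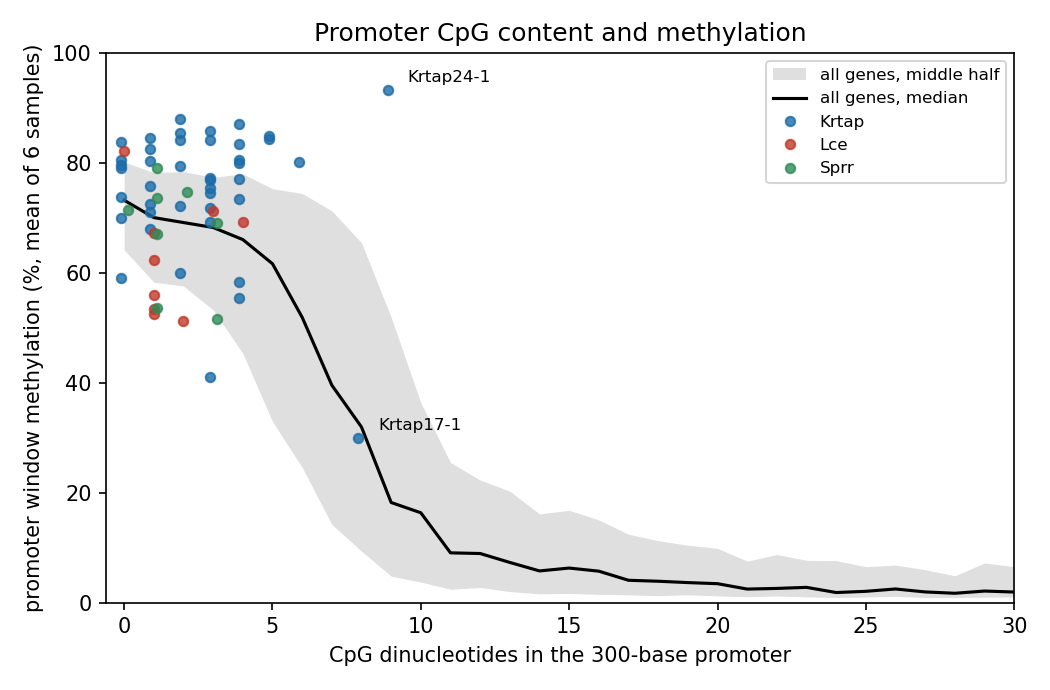
Promoter window methylation (%, mean of 6 samples) against the number of CpG dinucleotides in the 300-base promoter; points are Krtap, Lce and Sprr genes, the line is the median of all genes at that CpG count and the band its interquartile range. The median of all genes falls from 73.2% at 0 CpG to 1.92% at 30 CpG, and Krtap24-1 (93.2%) lies above the band at 9 CpG while Krtap17-1 (29.9%) lies within it at 8 CpG.

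Over whole gene regions the barrier genes were close to the genome's typical level. Their regions had a median of 73.4% (54.9% to 86.3%), against 71.5% for all protein-coding genes, and 59 of the 91 lay above that value. No barrier region was under 50%, against 4.70% of all gene regions. The median was 75.6% for Krtap, 71.9% for Sprr and 68.8% for Lce regions. Over the 552 windows, the level was 72.7% ± 0.652 in aged and 73.0% ± 0.0224 in mAdu samples (SD, n = 3 each), and over all windows 73.4% ± 0.317 in aged and 73.5% ± 0.152 in mAdu samples. Windows under 20% were scarce in the clusters, with 3 (0.543%), against 2.90% of all windows. Above 80% lay 183 windows (33.2%), against 44.0% of all windows. This share was 40.2% for Krtap, 14.7% for Lce and 17.2% for Sprr windows, so the shortfall lay mainly in Lce and Sprr.

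The clusters fell into a higher and a lower set. The Krtap cluster on chromosome 16 had 77.1%, 75.8% and 77.6% in aged samples, against 77.7%, 77.7% and 77.6% in mAdu samples. The Krtap cluster on chromosome 11 had 73.8%, 72.9% and 74.1% in aged samples, against 73.9%, 74.1% and 74.5% in mAdu samples. Every chromosome 16 sample lay above every chromosome 11 sample. The regions of chromosomes 1 and 10 averaged 76.3% and 75.8% over all samples. In the lower set, the Lce cluster had 66.4%, 66.9% and 66.3% in aged samples, against 67.5%, 67.4% and 67.5% in mAdu samples. The Sprr cluster had 70.2%, 67.2% and 70.9% in aged samples, against 68.0%, 67.4% and 65.6% in mAdu samples, and the Krtap5 cluster of chromosome 7 averaged 66.6%. Every sample of the 4 higher clusters lay above every sample of the 3 lower clusters, but the place of Sprr rests on the Sprr2a copies described below: without them its samples had 73.8%, 72.6% and 72.5% in aged samples, against 71.4%, 71.7% and 71.4% in mAdu samples, which overlapped chromosome 11. Within the higher set the samples of chromosomes 16, 1 and 10 overlapped in adjacent pairs, and within the lower set those of Sprr, Lce and Krtap5 overlapped.

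The gene bodies and their flanks were ordered differently in different clusters. On chromosome 16, windows that overlap a Krtap gene averaged 81.7% ± 0.200 in aged and 82.5% ± 0.301 in mAdu samples, and the flanking windows 75.5% ± 1.09 in aged and 76.4% ± 0.192 in mAdu samples. On chromosome 11 the order was turned round, with gene windows at 70.2% ± 0.424 in aged and 71.4% ± 0.259 in mAdu samples and flanks at 74.6% ± 0.709 in aged and 74.9% ± 0.458 in mAdu samples. On chromosome 10 the gene windows (7 windows, 66.6% over all samples) lay below the flanks (78.6%), as did the 3 gene windows of Krtap5 (53.5%, flanks 68.4%). Gene windows and flanks of the Lce cluster were at 66.1% and 67.5%, and those of the Sprr cluster at 67.1% and 68.9%. Because of this, the order of the clusters depends on the flank: without flanks, chromosome 10 stood at 66.6%, within the range of the lower set, and aged replicate 3 of Sprr (76.0%) lay above every sample of chromosome 11 (69.8% to 71.7%).

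**Figure D3:**
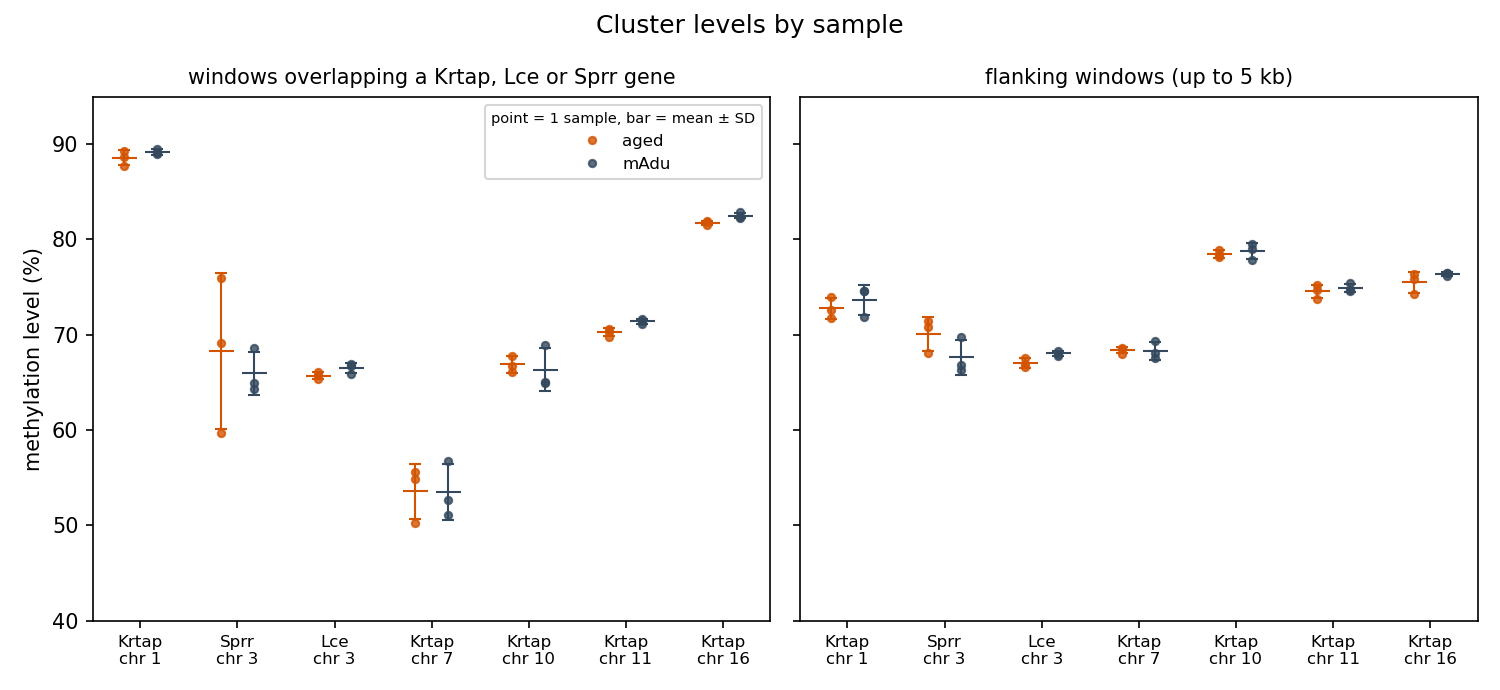
Methylation level (%) of each cluster by sample, over windows that overlap a Krtap, Lce or Sprr gene (left panel) and over the flanking windows (right panel); points are samples, bars are mean ± SD of the 3 aged (left of each pair) and 3 mAdu samples. Gene windows range from 53.5% on chromosome 7 to 88.9% on chromosome 1, while the flanks range from 67.5% to 78.6%.

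Krtap4, Krtap5 and Krtap9 genes encode ultra-high-sulphur hair proteins, and the lowest and highest gene regions of the chromosome 11 cluster were both among them. Krtap9-1 (chr11:99873389-99874000) had the lowest region of all 91 genes, with 52.6%, 55.1% and 57.1% in aged samples, against 55.5%, 51.8% and 57.0% in mAdu samples. Krtap9-5 and Krtap4-16 in the same cluster lay at 80.8% and 80.7%, and Krtap4-2 at 65.9%. The 8 Krtap4 regions spanned 65.9% to 80.7% with a median of 77.0%. Members of a subfamily thus differed by more than the spread between samples, since the lowest sample of Krtap9-5 (76.7%) was above the highest sample of Krtap9-1 (57.1%). The Krtap5 genes were uniform, all 5 between 64.6% (Krtap5-1) and 67.9% (Krtap5-5), with Krtap5-3 at 64.8% and Krtap5-4 at 67.7%. Outside these subfamilies, on chromosome 10, Krtap10-10, Krtap12-1 and Krtap10-4 had 73.4%, 75.3% and 79.7%.

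On chromosome 16 lie genes of the high-sulphur and the high-glycine-tyrosine hair proteins. Krtap24-1 had the highest region of all, with 87.4%, 85.5% and 87.0% in aged samples, against 85.5%, 86.5% and 86.0% in mAdu samples. It was followed in its cluster by Krtap13-1 at 83.2%. The lowest regions of the cluster belonged to high-glycine-tyrosine genes, Krtap6-3 (70.5%) and Krtap20-2 (70.7%). The 6 Krtap19 regions, of the same class, lay between 74.9% and 81.8%. Krtap28-13 on chromosome 1 lay at 76.3%.

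The cornified envelope genes reached lower. Lce3b had the lowest Lce region, with 56.1%, 53.6% and 55.8% in aged samples, against 52.4%, 55.6% and 61.7% in mAdu samples, and Lce3f followed at 59.8%. Lce1d and Lce1i were the highest at 74.6% and 73.4%. The 6 Lce3 regions, whose human counterparts are induced by injury and inflammation of the skin, had a median of 66.0%, and the 14 Lce1 regions one of 70.4%. In the Sprr cluster the lowest regions were Sprr2a1 (57.6%) and Sprr2f (59.9%) and the highest Sprr2h (76.4%) and Sprr2k (82.4%). The regions of Sprr1a and Sprr1b, precursors of the cross-linked envelope, lay at 74.0% and 70.1%.

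**Figure D4:**
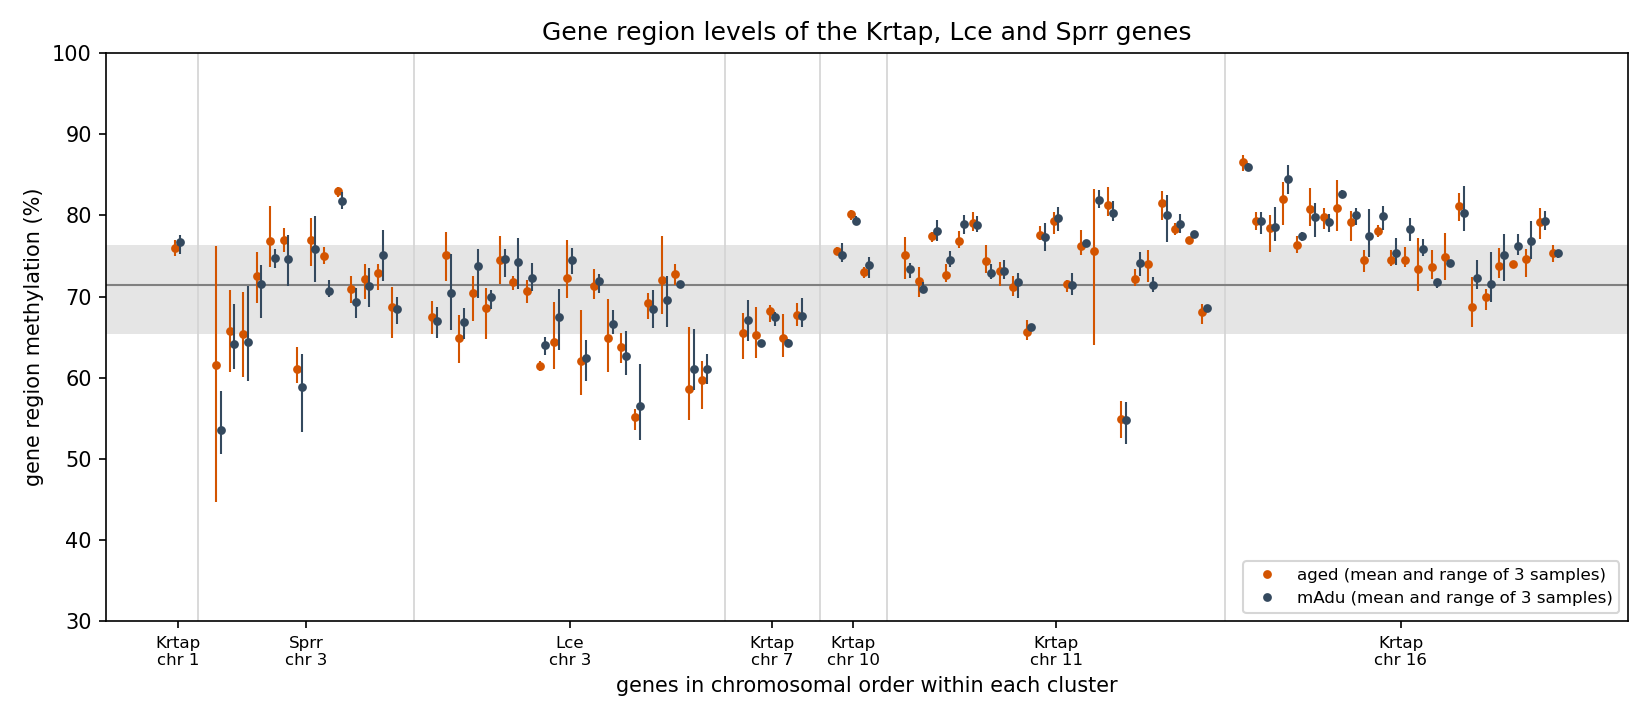
Gene region methylation (%) of the 91 genes in chromosomal order within each cluster; points are means and vertical lines the range of the 3 aged (orange) and 3 mAdu (blue) samples, and the grey line and band are the median (71.5%) and interquartile range of all protein-coding genes. Regions run from Krtap9-1 at 54.9% to Krtap24-1 at 86.3%, and Sprr2a1 and Krtap4-13 show the widest sample ranges.

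A few isolated windows in the clusters were nearly unmethylated. The lowest, chr16:88745001-88746000, lay 4744 bp from Krtap13 with no annotated gene, and had 6.13%, 2.77% and 3.07% in aged samples, against 2.88%, 6.23% and 2.09% in mAdu samples. The window chr3:93014001-93015000 overlapped Crct1, another gene of the epidermal differentiation complex, 2807 bp from Lce1m, and averaged 10.3%. The window chr11:99630001-99631000, inside the annotated gene Gm32730 and 1762 bp from Krtap4-1, averaged 13.3%. None of these 3 overlapped a Krtap, Lce or Sprr gene. The next were chr11:99574001-99575000 near Krtap1-5 (21.0%) and chr3:92998001-92999000 near Lce3f (24.3%), and in all 5 the groups overlapped.

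Aged and mAdu cells did not differ detectably at any gene region of the clusters. In limma's moderated test fitted on 20539 gene regions, 0 of 91 barrier regions passed a Benjamini-Hochberg adjusted p of 0.05, and 0.0% of all gene regions did. The smallest adjusted p among them was 0.861. At an unadjusted p under 0.05 there were 5 of 91 (5.49%), against 4.82% of all regions. The groups did not overlap in 2 of 91 regions with aged samples higher, against 4.52% of all regions, and in 4 of 91 with aged samples lower, against 5.62% of all regions. These shares are near or below those of all genes. The 95% interval of the difference lay within 5 percentage points of 0 for 52 of the 91 regions (57.1%), against 88.7% of all regions. For the other barrier regions the interval reached beyond 5 points.

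The Sprr gene with the smallest p was Sprr2i (chr3:92407991-92409271), a small proline-rich protein gene. It had 74.9%, 74.0% and 76.1% in aged samples, against 69.9%, 70.0% and 72.0% in mAdu samples. All aged values were the higher, by 4.34 points with an SE of 0.818 (limma, adjusted p = 0.861), and by 7.30 points with a flank of 2 kb and 1.35 points with 10 kb. Sprr2k was 1.32 points higher in the aged mean and Sprr1a, on 2 windows, 2.18 points lower, both with overlapping groups. Without mAdu replicate 1 these differences were 0.845 points for Sprr2k and -0.583 points for Sprr1a. That of Sprr1a was -3.73 points without mAdu replicate 2, -1.14 points without aged replicate 3, -5.94 points with a flank of 2 kb and -1.12 points with 10 kb, and that of Sprr2k was 2.08 points by the median over windows. By direction alone, 13 of 14 Sprr means, among them those of all 10 Sprr2 genes, were higher in aged samples, against 9592 of all 20539 gene regions. This is a description of neighbouring genes in a single cluster and carries no test.

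Lce regions leaned the other way, with 15 of 21 means lower in aged samples, against 53.3% of all gene regions. The lean lay in the Lce1 genes, with 13 of 14 means lower, while 4 of 6 Lce3 means were higher. Lce1g (chr3:92750151-92752338), a late cornified envelope gene, had 61.5%, 62.1% and 60.8% in aged samples, against 62.8%, 65.0% and 64.4% in mAdu samples. Its groups did not overlap, with a difference of -2.59 points and an SE of 0.736 (limma, adjusted p = 0.961). With a flank of 2 kb it was -6.10 points and with 10 kb -0.784 points. Lce1e differed by -2.49 points and Lce3e by 1.20 points, both with overlapping groups, and no direction can be given for either: Lce1e had 0.553 points by the median over windows, and Lce3e -0.715 points without flanks. Lce1a1, on 2 windows, was 4.64 points higher in the aged mean with overlapping groups, at 7.02 points without mAdu replicate 1, 2.37 points without mAdu replicate 3 and 0.882 points with a flank of 10 kb. Over the distinct windows of the Lce cluster the level was 66.5% ± 0.293 in aged and 67.5% ± 0.0744 in mAdu samples (SD, n = 3 each), without overlap of the samples. The Krtap cluster of chromosome 16 did not overlap either, at 76.8% ± 0.897 in aged and 77.7% ± 0.0871 in mAdu samples. In the remaining clusters the groups overlapped. These cluster means were given no test.

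Among the Krtap genes, Krtap19-9b (chr16:88931804-88932264) had the smallest p. It had 73.6%, 73.7% and 76.2% in aged samples, against 76.9%, 79.7% and 78.3% in mAdu samples. The aged samples were all lower, with a difference of -3.77 points and an SE of 0.999 (limma, adjusted p = 0.961), and of -2.33 points without flanks and -1.45 points with a flank of 10 kb. Krtap6-2, a high-glycine-tyrosine gene, differed by -2.29 points (SE 0.731) and did not overlap either (limma, adjusted p = 0.980). The genes higher in aged samples with the smallest p were Krtap31-2 (2.57 points, groups overlapping) and Krtap22-2 (1.90 points, not overlapping). Their direction turned with the flank, at -1.26 points for Krtap31-2 and -2.94 points for Krtap22-2 without flanks, so no direction can be given for either.

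**Figure D5:**
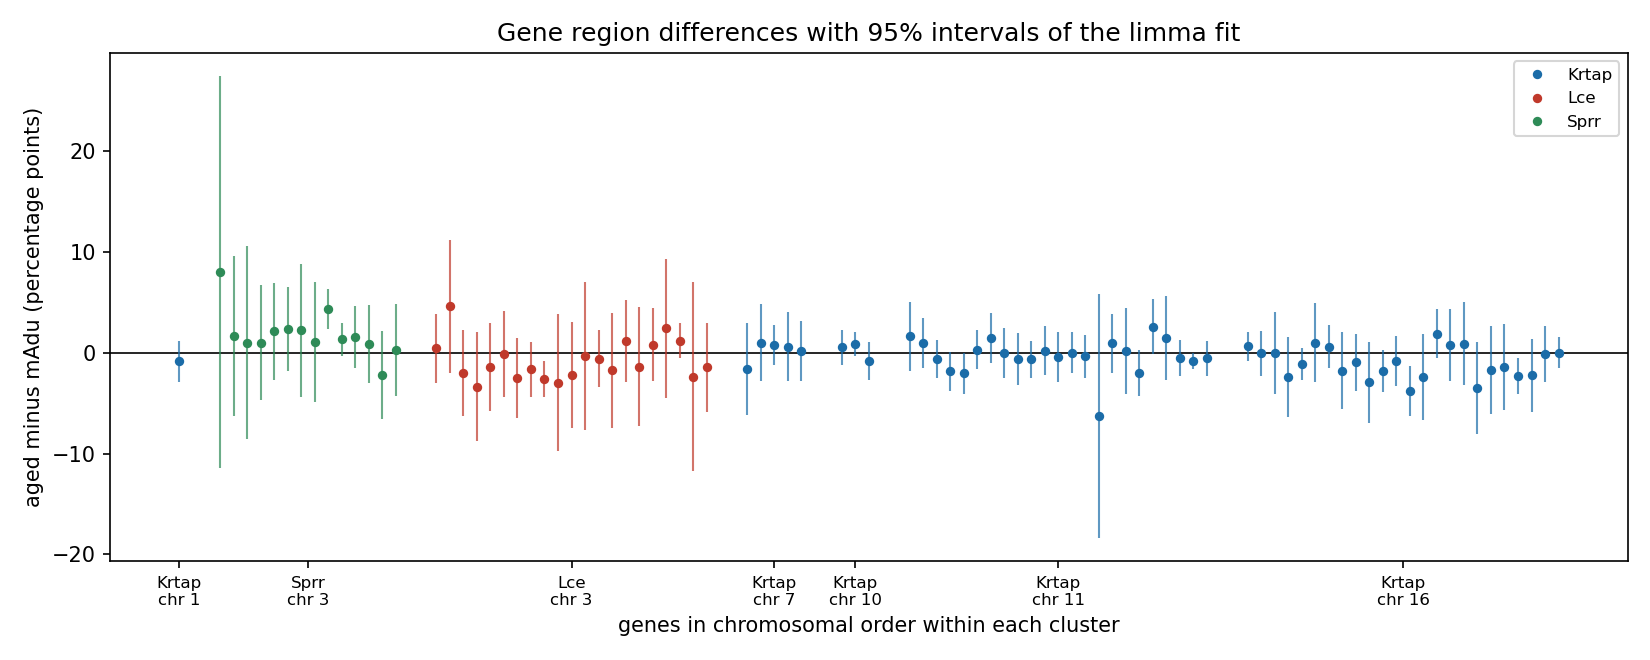
Aged minus mAdu difference of gene region methylation (percentage points) for the 91 genes in chromosomal order within each cluster; points are differences and lines the 95% intervals of the limma fit. No gene passes the adjusted threshold, and Sprr2a1 (8.03 points) and Krtap4-13 (-6.26 points) have the widest intervals of all.

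Single windows, promoters and wider intervals gave no calls either. None of the 552 windows passed in the limma fit over 1683697 windows, in which 0.0211% of all windows did (Benjamini-Hochberg adjusted p under 0.05). At an unadjusted p under 0.05 there were 27 of 552 windows (4.89%), against 4.67% of all. The groups did not overlap in 32 windows with aged samples higher (5.80%), against 4.75% of all windows, and in 32 with aged samples lower (5.80%), against 5.28% of all. At promoters, 0 of 59 passed, against 0.0197% of all promoters (limma), and 6 had an unadjusted p under 0.05 (10.2%), against 4.23% of all. Their groups did not overlap in 4 with aged samples higher (6.78%), against 5.54% of all promoters, and in 7 with aged samples lower (11.9%), against 4.47% of all. The promoter shares with an unadjusted p under 0.05 and with aged samples lower were thus more than 2 times those of all promoters, over 59 promoters of which several are neighbours. The lower ones with an unadjusted p under 0.05 were those of Krtap31-1, Krtap4-7, Krtap16-1 and Lce3a, and the higher ones those of Krtap6-5 and Sprr1b. The 100-kb intervals that hold these genes gave 0 calls in 28, against 0.0% of all intervals, with 2 (7.14%) at an unadjusted p under 0.05, against 4.56% of all. Their groups did not overlap in 1 interval with aged samples higher, against 3.63% of all, and in 1 with aged samples lower, against 5.84% of all.

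The window with the smallest p lay in Sprr2a2 (chr3:92253001-92254000). It had 84.1%, 72.2% and 99.7% in aged samples, against 25.4%, 32.7% and 26.2% in mAdu samples, a difference of 57.2 points that missed the threshold (limma, adjusted p = 0.209). The next windows higher in aged samples lay near Sprr1b (chr3:92439001-92440000, 9.25 points) and Sprr2e (chr3:92358001-92359000, 10.8 points). Near Sprr1b the samples were tight, at 62.6%, 61.9% and 61.1% in aged samples, against 52.9%, 51.1% and 53.8% in mAdu samples. The windows lower in aged samples with the smallest p lay near Krtap10-10 in the gene Tspear (chr10:77842001-77843000, -10.4 points), near Krtap4-1 in Gm32730 (chr11:99629001-99630000, -8.90 points) and near Krtap5-2 (chr7:142180001-142181000, -14.1 points). For each of these 5 windows limma's adjusted p was 0.978.

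Sprr2a1, Sprr2a2 and Sprr2a3 are annotated as copies of Sprr2a, and their values are uncertain. The promoters of Sprr2a1 and Sprr2a2 were the same in 300 of 300 bases, the only pair at or above 90% among 3570 pairs of barrier promoters, whose median identity was 26.7%. The promoter window of Sprr2a1 had 65.6%, 19.96% and 97.0% in aged samples, against 32.4%, 54.3% and 51.8% in mAdu samples. That of Sprr2a2 had 56.9%, 83.2% and 59.9% in aged samples, against 94.1%, 79.9% and 68.3% in mAdu samples. The samples scattered widely in both groups and in no shared order. Among the 25 windows of the 3 genes, 17 had a within-group SD above 10 points, against 0 of the 39 other Sprr windows and 4.86% of all windows. How reads were assigned between the copies is not given in the sources used here, and its part in this scatter was not tested. Without the 3 genes the Sprr cluster stood at 72.9% ± 0.721 in aged and 71.5% ± 0.168 in mAdu samples (SD, n = 3 each), against 69.4% ± 1.94 in aged and 67.0% ± 1.26 in mAdu samples with them.

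Other clusters held scattered windows too. Near Krtap4-13, 3 windows lay within 0.01 points of full methylation in 1 or more samples, and the gene's region had 83.3%, 64.1% and 79.5% in aged samples, against 80.9%, 81.5% and 83.2% in mAdu samples. The window chr11:99808001-99809000, 78 bp from Krtap4-13, had 100.0%, 29.3% and 40.9% in aged samples, against 99.3%, 97.9% and 99.9% in mAdu samples. It passed when aged replicate 1 was left out (limma, adjusted p = 0.0116), and a window in Sprr2a1 (chr3:92219001-92220000) passed when aged replicate 2 was left out (limma, adjusted p = 0.0458). With all 6 samples neither did.

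Other genes of the epidermal differentiation complex, and listed genes of skin and hair, showed no called difference either, in the same fit. Regions of 18 other epidermal differentiation complex genes had a median of 69.2%, from Tchh (34.6%), the trichohyalin of the hair follicle, Crct1 (57.3%) and Ivl (62.8%), the envelope protein involucrin, to Flg2 and Kprp (81.1% each). For 23 keratins of epidermis and hair the median was 69.4%, from Krt1 (60.0%) to Krt33a (78.2%). For 15 envelope and lipid barrier genes it was 71.6%, from the lipoxygenase gene Aloxe3 (56.4%) to Csta1 (79.2%). The 15 transcription factors of epidermis and hair were the exception, with a median of 62.7% and low regions at Hoxc13 (7.63%), Msx2 (14.5%) and Klf4 (34.0%). Of their 9 promoter windows, 8 were under 20%, against 0 of 59 in the Krtap, Lce and Sprr genes and 61.7% of all genes. These 9 promoters held a median of 20 CpG, a count at which the promoter median of all genes was 3.44%. At an unadjusted p under 0.05 (limma) there were 1 of 18, 3 of 23, 1 of 15 and 0 of 15 genes in these lists, in the order given, against 4.82% of all gene regions. The keratins' 3 of 23 (13.0%) lay above that share. Of their means, 17 of 23 (73.9%) were lower in aged samples, against 53.3% of all gene regions. In 4 of 23 the aged samples were lower without overlap, against 5.62% of all gene regions.

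The sorted cell type was checked against marker genes in the same way. Regions of 12 endothelial genes had a median of 46.5%, the lowest being Egfl7 (9.66%), Esam (32.8%) and Sox17 (33.1%), against 71.5% for all genes. Not every marker was low: Tek (65.3%), Erg (66.6%) and Emcn (78.9%) lay nearer to or above the level of all genes. Medians were 69.5% for 10 lung epithelial, 68.7% for 8 haematopoietic, 71.7% for 8 fibroblast and mural and 68.6% for 8 keratinocyte genes. The lung epithelial factor gene Nkx2-1 had 7.92%, below each endothelial gene. Promoter windows were under 20% in 6 of 8 endothelial, 2 of 3 fibroblast and mural, 1 of 7 lung epithelial, 1 of 6 haematopoietic and 0 of 3 keratinocyte genes. The keratinocyte median was close to those of the lung epithelial and haematopoietic lists, and below the 73.4% of the barrier regions. In the limma fit over all gene regions, 0 genes of any of these lists passed.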

How the data were processed

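The authors deposited mean methylation levels as a fraction from 0 to 1 in 1-kb windows of the 19 autosomes. Per the labels' protocols, 30 ng of DNA and 3 libraries per sample were used. BWA 0.7.8 and mm10 are named in the submitters' processing notes. No CpG caller, coverage filter or smoothing step is given in the sources used here. Fractions were multiplied by 100, and 1683697 of 1684140 windows, those complete over the 6 samples, entered the fits.

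Gene regions (5 kb flanks), promoter windows, windows and 100-kb intervals with at least 10 windows were each fitted with limma 3.58.1 in R 4.3.3 (group as the only term, variance trend, Benjamini-Hochberg adjustment at 0.05 over all features), a step tested on simulated data. A cluster joins genes of a family on a chromosome whose starts lie within 1 Mb of the next. TATAAA was searched in RefSeq promoters, 1 per gene.

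The genes and lists were chosen with earlier results of these data known. Named genes are, per cluster, the 2 lowest and 2 highest regions and, per family, the 2 smallest p in each direction; named windows are the 5 lowest and the 3 smallest p in each direction; genes of the other lists are named from their extremes. Promoters printed, Krtap4-13 and the Sprr2a copies were chosen after their values were seen. Alternatives changed the flank, scale, variance trend, extreme windows, averaging, replicate block and samples. A coverage minimum could not be tried.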

Additional observations from a re-analysis of the deposited data

How the results depend on the processing

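The clusters' gene regions, promoters and 100-kb intervals had 0 calls under every alternative run, and the windows had 0 to 1 when a sample was left out: 1 without aged replicate 1 and 1 without aged replicate 2, which are different windows. Over all windows the calls, 355 in the fit reported, were 134 on the logit scale, 185 with the replicate block, 59 without extreme windows and 680 to 998 with a sample left out. Calls over all promoters, 3 as reported, were 0 with no variance trend, on the logit scale and with the replicate block, 1 without extreme windows and 0 to 4 with a sample left out. Over all gene regions, 0 as reported, they were 2 with the replicate block and 0 to 3 with a sample left out. No pairing by replicate number was seen: deviations of same-numbered aged and mAdu samples correlated across gene regions at -0.136, -0.0381 and 0.0374. Those of differently numbered samples correlated at -0.142 to 0.18. With 3 samples per group these values cannot show whether same-numbered samples were handled together.

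Cluster levels moved with the flank. With no flank, 2 kb and 10 kb they were 88.9%, 83.5% and 79.0% on chromosome 1, 53.5%, 65.5% and 70.2% on chromosome 7, 66.6%, 74.0% and 72.8% on chromosome 10, and 82.1%, 78.6% and 75.9% on chromosome 16. With no flank and 2 kb they were 70.8% and 72.6% on chromosome 11, and 66.1% and 67.8% for Lce. Averaging over genes gave 67.6% for Lce and 70.5% for Sprr, and leaving out the Sprr2a copies, an alternative added after seeing the data, gave 72.2% for Sprr. The aged minus mAdu difference became 1.65 points (2 kb) and 1.75 points (10 kb) on chromosome 7, -1.17 points on chromosome 11 (no flank) and -0.481 points for Lce (10 kb). With a sample left out, the differences ranged from -1.59 to -0.362 points on chromosome 1, 1.70 to 3.53 for Sprr and -1.10 to -0.833 for Lce. They were -0.787 to -0.184 on chromosome 11 and -1.23 to -0.362 on chromosome 16. On chromosomes 7 (-0.353 to 0.695) and 10 (-0.617 to 0.275) the sign changed, so these have no direction. In the other clusters the sign held, but no cluster mean was tested. With all 6 samples the groups overlapped for chromosomes 1 and 11 and for Sprr. Uncalled differences turned round for Krtap31-2 (-1.26 points with no flank, -0.0293 by the median over windows), Krtap22-2 (-2.94 with no flank, -1.25 with 2 kb), Lce3e (-0.715 with no flank) and Lce1e (0.553 by the median). The cause was not tested. Without coverage, precision rests on 3 samples per group, and adjacent genes share windows.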
